A study of Homo sapiens with 10 samples.

Results

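Mature microRNAs (miRNAs) were compared between cultures of ES-2, a human cell line derived from an ovarian cancer, transfected with siRNAs against IGF2BP2 (siIGF2BP2, 3 libraries) and cultures of the same line transfected with control siRNAs (siC, 2 libraries). The miRNAs described are those with a normalised read count of at least 1 in at least 2 of these 5 libraries, after rows of the same mature miRNA had been summed. This gave 726 miRNAs of 2576 in the table, of which 1196 had a read in any of the 10 libraries of the series and 889 entered the test. Of the 726, 389 reached a value of 1 in all 5 libraries and 164 in exactly 2. The 164 had a median of 0.832 for the mean of the 5 libraries. Of the 163 tested miRNAs that did not meet the rule, 131 reached a value of 1 in 1 of the 5 libraries and 32 in none, with means of at most 8.25.

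The series also holds 2 libraries of ES-2 cells with siRNAs against IGF2BP1 (siIGF2BP1) and 3 with siRNAs against IGF2BP3 (siIGF2BP3). Their values are given beside some of the results, not all. All groups are the same cell line, grown in the same medium, and differ by the siRNA; the labels name a pool of siRNAs per target and no untransfected control, and they give no time after transfection. The siC and siIGF2BP1 samples carry one source name in the labels and the siIGF2BP2 and siIGF2BP3 samples another, so the libraries form 2 blocks. Block and knockdown cannot be told apart in siIGF2BP2 against siC, and that limit holds for every difference between these groups below. Only siIGF2BP2 against siIGF2BP3 lies within a block. The table lists mature miRNAs and no mRNA, so the depletion of IGF2BP2 was not measured here. The labels do not say whether the libraries within a group came from separate cultures, so the p-values measure how far these libraries vary, and that variation may be technical. The siC libraries are called C2 and C3 after their columns, which could not be tied to single samples.

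A miRNA is cut from a hairpin precursor by Drosha and Dicer, and 1 of its arms is loaded into an Argonaute protein. The loaded miRNA finds mRNAs mainly through its seed, bases 2 to 8 from the 5′ end, and lowers their stability or translation, so miRNAs with the same seed share many targets. IGF2BP2 belongs to a family of RNA-binding proteins that bind mRNAs through KH and RRM domains and are known for stabilising them; all members of the family are targets of let-7, and IGF2BP2 is expressed in many tumours. Many miRNAs of different families are encoded close together and transcribed as a unit, and near-identical paralogs are often encoded in separate clusters.

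The mature sequences below are those of the miRNAs that the results turn on, from RefSeq on GRCh38.p14, which held a mature sequence for 644 of the 726 miRNAs. They are written 5′ to 3′ in lower case, with the seed in capitals. The first 9 are the miRNAs that were higher in siIGF2BP2 and have an entry:
miR-146a-5p: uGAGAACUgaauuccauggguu
miR-1275: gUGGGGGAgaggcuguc
miR-1260b: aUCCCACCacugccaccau
miR-222-5p: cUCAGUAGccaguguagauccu
miR-424-3p: cAAAACGUgaggcgcugcuau
miR-181a-2-3p: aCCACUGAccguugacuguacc
miR-196b-5p: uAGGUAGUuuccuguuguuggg
miR-191-5p: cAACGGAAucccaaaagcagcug
miR-30a-5p: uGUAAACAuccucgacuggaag

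miR-146b-5p is shown because it has the seed of miR-146a-5p and did not pass, and the miR-23, miR-27, miR-148 and miR-181 groups because members with 1 seed differed in the comparison:
miR-146b-5p: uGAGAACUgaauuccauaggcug
miR-23a-3p: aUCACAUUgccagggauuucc
miR-23b-3p: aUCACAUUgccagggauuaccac
miR-27a-3p: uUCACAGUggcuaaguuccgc
miR-27b-3p: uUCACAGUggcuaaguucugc
miR-148a-3p: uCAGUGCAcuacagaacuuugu
miR-148b-3p: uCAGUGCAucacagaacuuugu
miR-181a-5p: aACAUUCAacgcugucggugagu
miR-181b-5p: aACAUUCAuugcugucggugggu
miR-181c-5p: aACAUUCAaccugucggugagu
miR-181d-5p: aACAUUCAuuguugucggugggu

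The remaining ones fell. The first 3 are among the larger falls of miRNAs still read in siIGF2BP2, the next 4 had high siC levels and were at or near 0 reads in siIGF2BP2, and the last pair shares a seed:
miR-127-3p: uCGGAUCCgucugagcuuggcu
miR-143-3p: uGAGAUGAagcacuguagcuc
miR-126-5p: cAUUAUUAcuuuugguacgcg
miR-381-3p: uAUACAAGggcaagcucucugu
miR-410-3p: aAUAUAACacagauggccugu
miR-411-5p: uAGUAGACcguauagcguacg
miR-654-3p: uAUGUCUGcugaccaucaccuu
miR-485-3p: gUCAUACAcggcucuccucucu
miR-539-3p: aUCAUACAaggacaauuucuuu

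The values are normalised read counts, in which the authors scaled the libraries to each other, and the 5 libraries held 495530 to 733608 miRNA reads. The test was limma on log2(value + 1) with all 10 libraries in 1 fit, and a miRNA passed at an adjusted p (Benjamini-Hochberg over 889 miRNAs) under 0.05. Against siC, 80 miRNAs passed in siIGF2BP2, 11 higher and 69 lower, which is 9.0% of the 889 tested, 1.24% higher and 7.76% lower. With the libraries rescaled by their upper quartile, the median change of the 315 miRNAs with a mean of at least 10 moved from 0.04 to 0.51 on the log2 scale and the split became 94 higher and 64 lower. In all 80 the values of the groups did not overlap; over all tested miRNAs 10.7% were above and 16.1% below siC without overlap. The median log2 fold change was 0.04 over the 315 miRNAs with a mean of at least 10, and 224 of these (71.1%) lay between -0.5 and 0.5. The median over the 726 miRNAs was -0.08, and over all tested miRNAs -0.03.

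**Figure D1:**
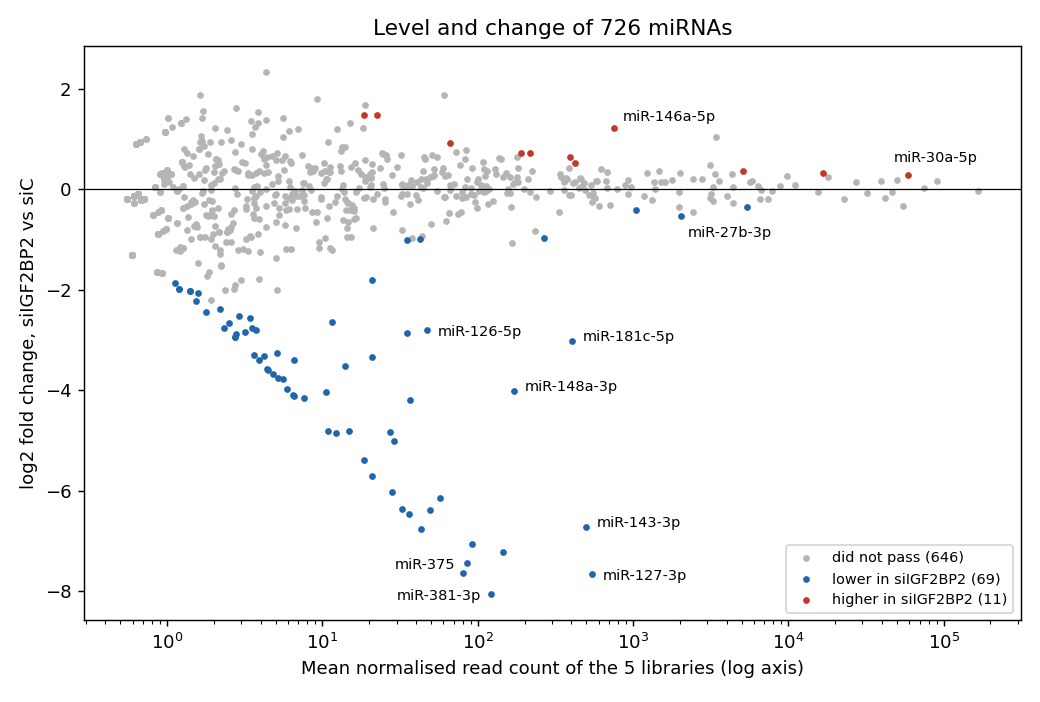
Mean normalised read count of the 5 libraries (x axis, log scale) against the log2 fold change of siIGF2BP2 over siC (y axis) for the 726 miRNAs, with the 11 that passed as higher in red, the 69 that passed as lower in blue and the 646 others in grey. The red points lie between 0.29 and 1.48, while the blue points reach -8.06 and include a diagonal of miRNAs at or near 0 reads in siIGF2BP2.

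The largest rise with abundant reads was that of miR-146a-5p, an NF-κB-induced miRNA that represses the signalling adaptors IRAK1 and TRAF6. For miR-146a-5p, siC had 416 and 422 and siIGF2BP2 had 996, 993 and 939. Every siIGF2BP2 value was far above both siC values, and the spread within each group was narrow. This was a rise of 1.22 ± 0.13 on the log2 scale (SE, adjusted p = 2.41e-05). It was also far above siIGF2BP3 (228, 202 and 201), and the difference within the block was 2.21 ± 0.11 (SE, adjusted p = 1.05e-07). The siIGF2BP1 libraries lay between, at 577 and 512. This miRNA passed whichever of the 5 libraries was left out and under each of the 12 alternative settings. Its seed relative miR-146b-5p, encoded on another chromosome, was at 205 and 192 in siC and 211, 216 and 173 in siIGF2BP2 (log2 fold change 0.01 ± 0.15 SE, adjusted p = 1, 95% interval -0.33 to 0.34), and these values overlap. miR-155-5p, the third NF-κB-induced miRNA of this list, did not pass either (log2 fold change -0.20 ± 0.11 SE, adjusted p = 0.437). The list therefore held 1 rise and 0 falls among 3 miRNAs, with a median of 0.01.

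The abundant miRNAs that rose were miR-30a-5p, miR-191-5p and miR-186-5p, by 1.22, 1.26 and 1.29 times in their group means. miR-30a-5p, the most abundant member of a family that restrains mesenchymal and autophagy genes, took the largest number of reads of any miRNA that passed. miR-30a-5p was at 54269 and 49634 in siC and at 61265, 66175 and 63068 in siIGF2BP2. The groups did not overlap, and the siIGF2BP2 values were also above all siIGF2BP3 values (43140.0, 44713 and 47226). miR-30a-5p rose by 0.29 ± 0.08 (log2, SE, adjusted p = 0.0433). The other members of the miR-30 family, miR-30b-5p, miR-30c-5p, miR-30d-5p and miR-30e-5p, had log2 fold changes between -0.03 and 0.16 and did not pass, so the list held 1 rise among 5 with a median of -0.01. The normalised read counts of miR-191-5p were 14838 and 14101 in siC and 19354, 17523 and 17655 in siIGF2BP2. The siIGF2BP2 values of miR-191-5p, a housekeeping miRNA of an intron of DALRD3, were the 3 highest of the 10 libraries. The log2 fold change was 0.33 ± 0.09 (SE, adjusted p = 0.0435). Its cluster partner miR-425-5p did not pass (log2 fold change 0.13 ± 0.14 SE, adjusted p = 0.745). In siC, miR-186-5p had values of 4186 and 4525, and in siIGF2BP2 of 5542, 5729.7 and 5617. These values do not overlap either, and the rise of miR-186-5p was 0.37 ± 0.10 (SE, adjusted p = 0.0337). These calls were lost without single libraries: miR-30a-5p without siC C3 or siIGF2BP2 replicate 1, 2 or 3 (highest adjusted p = 0.214), miR-191-5p without any 1 of the 5 (highest adjusted p = 0.202) and miR-186-5p without any 1 of the 5 (highest adjusted p = 0.168). With scaling by TMM factors, 4 of the 11 rises remained, and miR-30a-5p, miR-191-5p and miR-186-5p were not among them. The calls of miR-30a-5p and miR-191-5p were each kept in 5 of the 12 alternative settings and lost with edgeR and DESeq2 too. That of miR-186-5p was kept in 10.

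**Figure D2:**
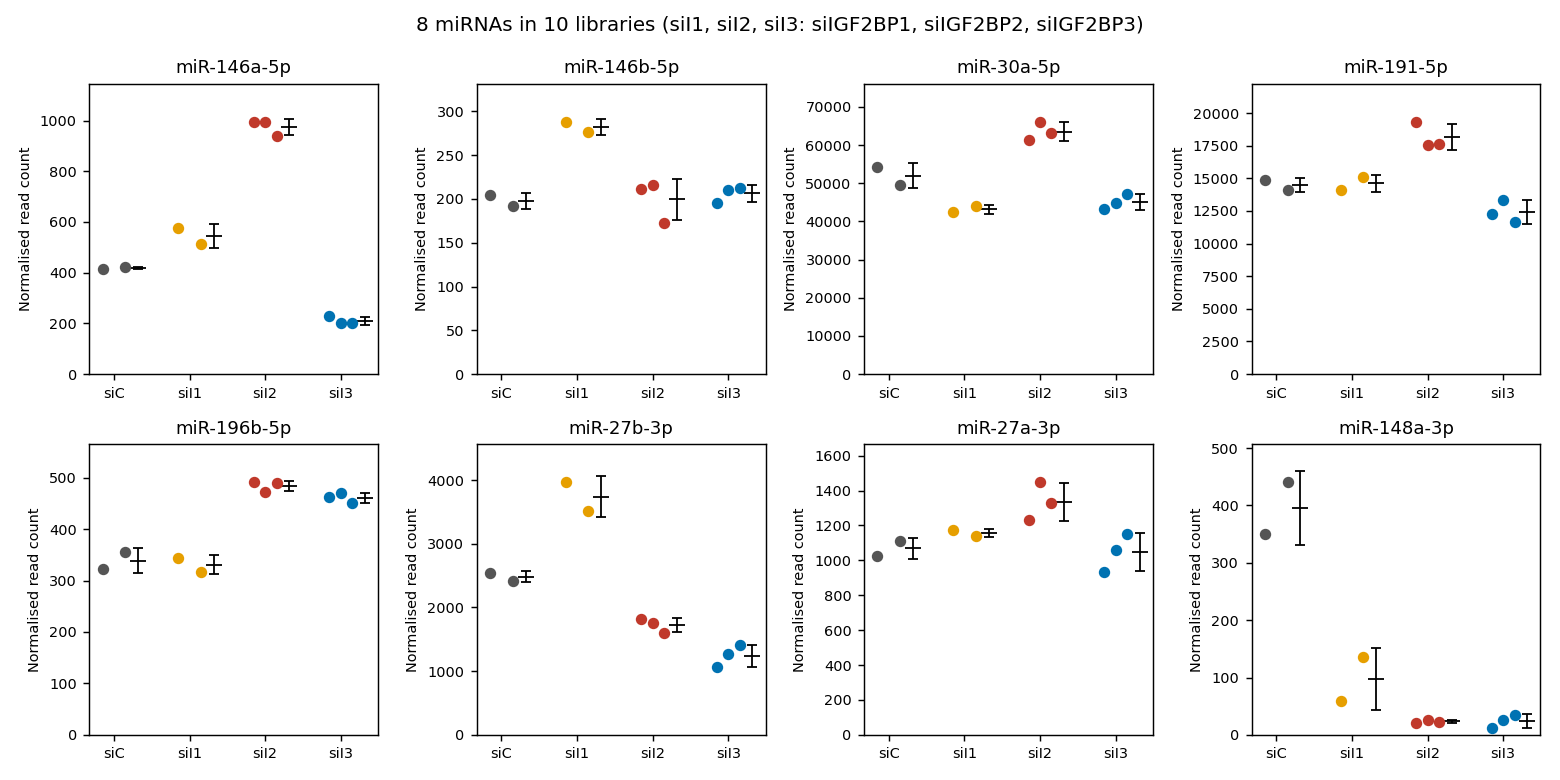
Normalised read count (y axis, from 0) in each library by group (x axis) for 8 miRNAs; points are libraries, and the bar with whiskers is the group mean ± SD (n = 2 for siC and siI1, n = 3 for siI2 and siI3). The 3 siIGF2BP2 points of miR-146a-5p lie between 939 and 996 and the highest other library is at 577, while miR-146b-5p, with the same seed, overlaps between siC and siIGF2BP2; miR-27b-3p and miR-148a-3p are lower in both siIGF2BP2 and siIGF2BP3 than in siC.

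Rises of 1.43 to 1.92 times in the group means were seen in miRNAs of intermediate level. miR-196b-5p is encoded in the HOXA cluster and represses HOX mRNAs. In the siC libraries miR-196b-5p was read at 322 and 355, and in the siIGF2BP2 libraries at 491, 472 and 489. The siIGF2BP3 libraries were at 463, 469.7 and 451, and its near-identical paralog miR-196a-5p overlapped between siC and siIGF2BP2 (log2 fold change 0.25 ± 0.22 SE, adjusted p = 0.655). This was a rise of 0.52 ± 0.12 on the log2 scale (SE, adjusted p = 0.0206). Of the 5 HOX cluster miRNAs, 1 rose and 0 fell. miR-181a-2-3p is the passenger arm of a precursor whose main arm, miR-181a-5p, restrains T cell signalling and differentiation genes. For miR-181a-2-3p, siC had 294 and 290.1 and siIGF2BP2 had 489.5, 445 and 433. miR-181a-2-3p rose by 0.64 ± 0.16 (log2, SE, adjusted p = 0.0282). It passed within the block too, at 0.90 ± 0.15 (SE, adjusted p = 0.00421). The main arm miR-181a-5p did not pass against siC (log2 fold change 0.25 ± 0.12 SE, adjusted p = 0.304). miR-222-5p is the passenger arm of miR-222, whose main arm represses the cell cycle inhibitor p27. miR-222-5p was at 112 and 164 in siC and at 221, 218 and 235 in siIGF2BP2. The log2 fold change was 0.72 ± 0.21 (SE, adjusted p = 0.0495). The siIGF2BP3 values were higher still (297, 266 and 398), and the main arm did not pass (log2 fold change -0.05 ± 0.08 SE, adjusted p = 0.812).

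miR-424-3p comes from an X-linked precursor whose other arm belongs to the miR-15/16 family of cell cycle repressors. The normalised read counts of miR-424-3p were 129 and 186 in siC and 259, 271 and 235 in siIGF2BP2. This was a rise of 0.71 ± 0.19 on the log2 scale (SE, adjusted p = 0.0326). The other arm did not pass (log2 fold change 0.64 ± 0.20 SE, adjusted p = 0.0739). The siIGF2BP1 libraries were the highest in the series for this miRNA, at 598 and 546. Of the 7 miRNAs of the cluster of miR-424, miR-503, miR-542 and miR-450, 1 rose and 0 fell. miR-199b-5p is a miRNA of mesenchymal cells. In siC, miR-199b-5p had values of 37.9 and 47.9, and in siIGF2BP2 of 90.5, 85.9 and 70.8. miR-199b-5p rose by 0.93 ± 0.22 (log2, SE, adjusted p = 0.0212). Of the 4 miRNAs of the list of miR-199 and miR-214, it alone passed. With scaling by TMM factors the calls of miR-196b-5p, miR-181a-2-3p, miR-222-5p and miR-424-3p were lost. The call of miR-424-3p was also lost with the 2 groups fitted alone, and that of miR-199b-5p with DESeq2 (adjusted p = 0.097). That of miR-222-5p was kept in 4 of the 12 alternative settings. These calls at intermediate levels were also lost without single libraries: miR-196b-5p without siC C2 or siIGF2BP2 replicate 1, 2 or 3 (highest adjusted p = 0.0968), miR-181a-2-3p without any 1 of the 5 (highest adjusted p = 0.148), miR-222-5p without siC C2 or siIGF2BP2 replicate 1, 2 or 3 (highest adjusted p = 0.414), miR-424-3p without siC C2 or siIGF2BP2 replicate 1, 2 or 3 (highest adjusted p = 0.282) and miR-199b-5p without siC C2 or siIGF2BP2 replicate 1 or 2 (highest adjusted p = 0.151).

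The rises with the fewest reads were those of miR-1260b and miR-1275. In the siC libraries miR-1260b was read at 9.90 and 10.6, and in the siIGF2BP2 libraries at 31.1, 28.6 and 31.1. The values within each group were close, and siIGF2BP3 and siIGF2BP1 lay above siC as well (43.9, 41.4 and 44.0 in siIGF2BP3 and 29.7 and 37.9 in siIGF2BP1). The log2 fold change was 1.47 ± 0.25 (SE, adjusted p = 0.00161). With DESeq2 on the recovered reads miR-1260b did not pass (adjusted p = 0.0578). miR-1260b overlaps in sequence with tRNA, and whether its reads came from tRNA fragments was not tested; it was the only one of 8 entries overlapping other small RNAs that passed. miR-1291 in the same list had a wide spread, at 1582 and 1229.7 in siC and 491, 6436 and 7340.2 in siIGF2BP2, which overlap (log2 fold change 1.03 ± 0.89 SE, adjusted p = 0.651). For miR-1275, siC had 4.95 and 13.3 and siIGF2BP2 had 26.9, 24.8 and 22.4. This was a rise of 1.48 ± 0.39 on the log2 scale (SE, adjusted p = 0.0356). Without siC C2, the library with the lowest value, the log2 fold change of miR-1275 was 0.84. The call was lost for miR-1275 without siC C2 or siIGF2BP2 replicate 1, 2 or 3. It was also lost with the 2 groups fitted alone (adjusted p = 0.102), with edgeR (adjusted p = 0.0643) and with DESeq2 (adjusted p = 0.263). Together the 11 miRNAs that rose made up 8.18% and 7.14% of siC reads and 9.0%, 9.72% and 9.38% of siIGF2BP2 reads, against 6.6% to 7.12% in siIGF2BP3 and 6.15% to 6.73% in siIGF2BP1; the rise of this share follows from the choice of the miRNAs.

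Of the 69 miRNAs that fell, 13 kept a mean of at least 5 in siIGF2BP2 and 56 were under 5. Several of the 13 have paralogs that did not pass, and these are described first; the largest falls of the 13, those of miR-127-3p and miR-143-3p, follow further on. miR-23b-3p, miR-27b-3p and miR-27b-5p come from 1 cluster on chromosome 9, and its paralogous cluster on chromosome 19 encodes miR-23a and miR-27a. The miR-23 and miR-27 families repress metabolic and differentiation genes. miR-27b-3p was at 2543 and 2419 in siC and at 1821, 1758 and 1604 in siIGF2BP2. On the log2 scale miR-27b-3p fell by 0.52 ± 0.13 (SE, adjusted p = 0.0228). The siIGF2BP3 values were lower than those of siIGF2BP2, at 1062, 1271 and 1403, a difference of 0.48 ± 0.12 (SE, adjusted p = 0.0409) within the block, while siIGF2BP1 was at 3966 and 3509. The normalised read counts of miR-23b-3p were 51.1 and 70.5 in siC and 25.5, 34.4 and 29.4 in siIGF2BP2. The log2 fold change was -1.0 ± 0.25 (SE, adjusted p = 0.0227). In siC, miR-27b-5p had values of 57.7 and 43.9, and in siIGF2BP2 of 28.3, 24.8 and 20.7. All 3 products of the cluster had groups that did not overlap, and miR-27b-5p fell by 1.01 ± 0.28 (SE, adjusted p = 0.0381). The paralogs did not pass: miR-23a-3p had a log2 fold change of -0.01 ± 0.14 and miR-27a-3p of 0.32 ± 0.12 (SE). The calls were lost for miR-27b-3p without siC C2, siC C3 or siIGF2BP2 replicate 2 or 3 (highest adjusted p = 0.155), miR-23b-3p without siC C3 or siIGF2BP2 replicate 1 or 3 (highest adjusted p = 0.161) and miR-27b-5p without any 1 of the 5 (highest adjusted p = 0.269). With upper quartile scaling they lay at -0.04, -0.53 and -0.55 against a median of 0.51.

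The same contrast between clusters was seen in the miR-181 family, whose 4 members share the seed ACAUUCA. miR-181c-5p and miR-181d-5p, encoded together on chromosome 19, fell, while miR-181a-5p and miR-181b-5p, encoded on chromosomes 1 and 9, did not pass. In the siC libraries miR-181c-5p was read at 407 and 1336, and in the siIGF2BP2 libraries at 83.5, 103 and 84.6. The siC libraries differed more than 3 times from each other, and both lay above every siIGF2BP2 value. miR-181c-5p fell by 3.02 ± 0.37 on the log2 scale (SE, adjusted p = 0.000107). Without siC C3 the log2 fold change was -2.17 (adjusted p = 0.000918). The siIGF2BP3 libraries were low as well, at 47.9, 52.1 and 66.6. The passenger arm miR-181c-3p had a log2 fold change of -0.69 and did not pass (adjusted p = 0.231). For miR-181d-5p, siC had 257 and 520.4 and siIGF2BP2 had 192, 168 and 204. On the log2 scale miR-181d-5p fell by 0.96 ± 0.26 (SE, adjusted p = 0.037). Without siC C3 its log2 fold change was -0.45, and the call was lost for miR-181d-5p without siC C3 or siIGF2BP2 replicate 1, 2 or 3 (highest adjusted p = 0.393). Of the 6 miRNAs of the miR-181 list, 1 rose and 2 fell, with a median of 0.04.

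miR-148a-3p, which represses DNMT1 and is known for its high level in liver and other differentiated tissues, fell as well. miR-148a-3p was at 349.7 and 441 in siC and at 21.2, 26.7 and 22.4 in siIGF2BP2. The siIGF2BP3 values were at the same low level (11.97, 26.0 and 34.5), and siIGF2BP1 lay between at 58.6 and 136. The log2 fold change was -4.01 ± 0.41 (SE, adjusted p = 2.41e-05). Its seed relatives miR-148b-3p (log2 fold change -0.06 ± 0.13 SE, adjusted p = 0.871) and miR-152-3p (log2 fold change 0.04 ± 0.19 SE, adjusted p = 0.961) did not pass. miR-148a-5p, the other arm, also fell, from 11.5 and 3.99 in siC to 1.41, 0 and 0 in siIGF2BP2, a call lost for miR-148a-5p without siC C2 or siIGF2BP2 replicate 2 or 3 (highest adjusted p = 0.23). Of the 6 miRNAs of the list of miR-148, miR-152, miR-130 and miR-301, 1 fell and 0 rose.

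**Figure D3:**
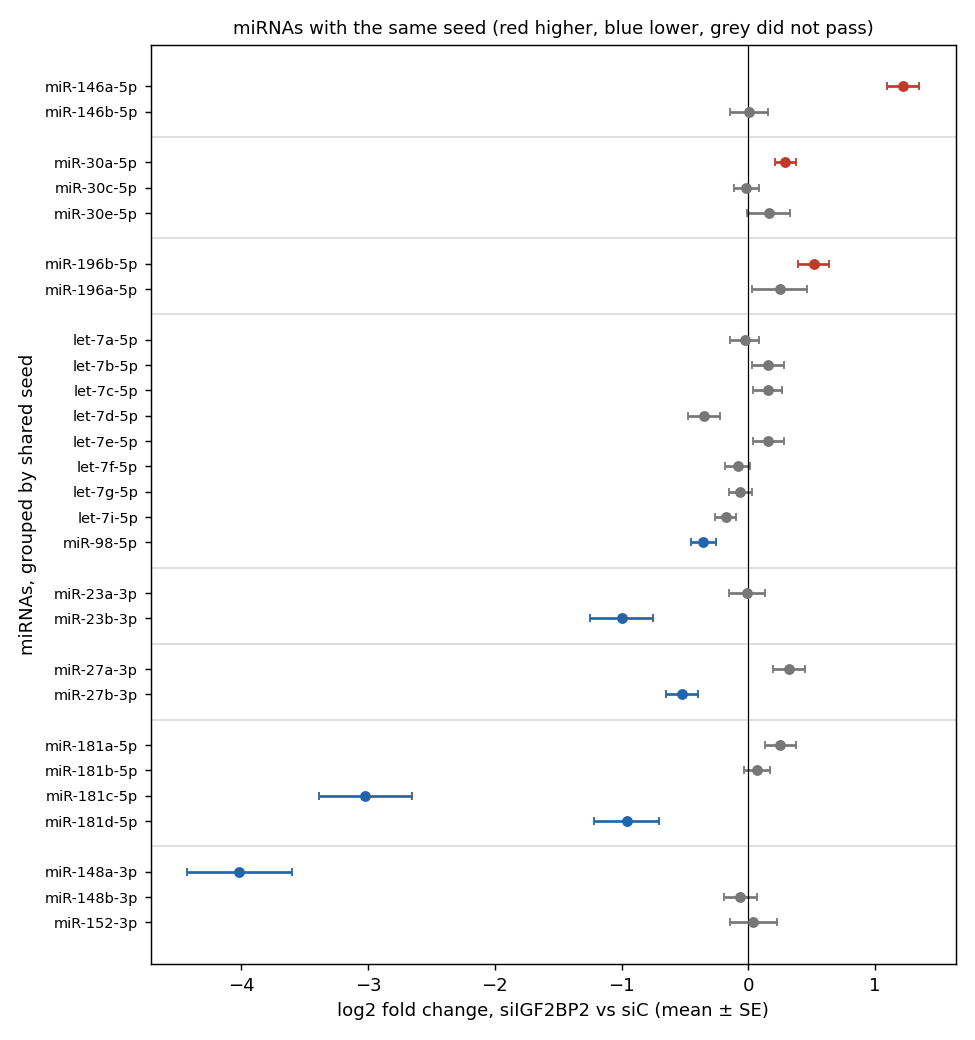
log2 fold change of siIGF2BP2 over siC (x axis, point with whiskers of 1 SE) for miRNAs grouped by shared seed (y axis), red for higher, blue for lower and grey for did not pass. In the miR-146, miR-23, miR-27, miR-181 and miR-148 groups 1 or 2 members passed while miRNAs with the same seed lay between -0.06 and 0.32.

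Because these miRNAs differ from their paralogs by few bases, their ratio within each library was computed, which does not depend on how libraries are scaled. These pairs were chosen with the values known, so the ratios are a description. The siIGF2BP3 libraries, of the same block as siIGF2BP2, are given beside them. miR-146a-5p and miR-146b-5p differ at 2 of 22 bases compared, and their ratio was 2.03 and 2.2 in siC, 4.72, 4.60 and 5.44 in siIGF2BP2 and 0.944 to 1.16 in siIGF2BP3. miR-27b-3p differs from miR-27a-3p at 1 of 21 bases, with a ratio of 2.48 and 2.18 in siC and 1.48, 1.22 and 1.21 in siIGF2BP2, and 1.14 to 1.22 in siIGF2BP3. In both pairs the siIGF2BP2 ratios lay outside the range of siC. The ratio of miR-23b-3p to miR-23a-3p was 0.112 and 0.134 in siC against 0.0495, 0.0735 and 0.0609 in siIGF2BP2 and 0.0402 to 0.0463 in siIGF2BP3. The ratio of miR-148a-3p to miR-148b-3p was 0.182 and 0.207 in siC against 0.0105, 0.0154 and 0.0109 in siIGF2BP2 and 0.00501 to 0.0177 in siIGF2BP3. The ratio of miR-181d-5p to miR-181b-5p, which differ at 1 of 23 bases, was 0.0297 and 0.0611 in siC against 0.0201, 0.0198 and 0.0225 in siIGF2BP2 and 0.0265 to 0.0313 in siIGF2BP3. These 3 ratios were lower in each siIGF2BP2 library than in either siC library. In siIGF2BP3 the miR-27, miR-23 and miR-148 ratios were below both siC values too, and the miR-181d-5p ratio overlapped siC. The ratio of miR-181c-5p to miR-181a-5p was 0.0243 and 0.0852 in siC, 0.00398 to 0.00591 in siIGF2BP2 and 0.00508 to 0.00781 in siIGF2BP3, low in both groups of the block. By contrast, the ratio of miR-30a-5p to miR-30e-5p was 15.6 and 15.9 in siC and 20.1, 15.2 and 16.8 in siIGF2BP2, and these overlap, with 9.25 to 13.1 in siIGF2BP3. The ratio of miR-196b-5p to miR-196a-5p overlapped too. It was 2.6 and 1.76 in siC and 2.75, 2.13 and 2.92 in siIGF2BP2, with 3.23 to 3.64 in siIGF2BP3. In siIGF2BP1 the ratio of miR-181c-5p to miR-181a-5p was 0.0231 and 0.0218, and that of miR-148a-3p to miR-148b-3p was 0.0336 and 0.0769. These siIGF2BP1 ratios, and those of the miR-146 and miR-30 pairs, were below both siC values. Those of the miR-23 and miR-27 pairs were above both, and those of the miR-181d-5p and miR-196 pairs overlapped siC. Reads of paralogs that differ by 1 base can be assigned to either, depending on the mismatches allowed, which the sources used here do not give.

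The other falls at a measurable level included a let-7 relative and a sensory cluster member. miR-98-5p has the let-7 seed GAGGUAG, and let-7 miRNAs repress growth-promoting mRNAs, those of the IGF2BP genes among them. The normalised read counts of miR-98-5p were 6086 and 6313 in siC and 4809, 5109 and 4634 in siIGF2BP2. miR-98-5p fell by 0.35 ± 0.10 on the log2 scale (SE, adjusted p = 0.0382). The other 8 let-7 members did not pass, with log2 fold changes from -0.35 for let-7d-5p to 0.16 for let-7e-5p, so that 1 of 9 fell and 0 rose, with a median of -0.06. The whole list took 28.7% to 30.5% of the reads in siC and 27.1% to 28.4% in siIGF2BP2. miR-183-5p belongs to a cluster known from sensory organs and tumours. In siC, miR-183-5p had values of 1199 and 1252, and in siIGF2BP2 of 995, 857 and 926. On the log2 scale miR-183-5p fell by 0.41 ± 0.11 (SE, adjusted p = 0.0378). It passed within the block as well, where siIGF2BP3 was at 1257, 1336 and 1289. With upper quartile scaling miR-98-5p moved to 0.13 and miR-183-5p to 0.074, a reversed sign against a median of 0.51. The calls were lost for miR-98-5p without any 1 of the 5 (highest adjusted p = 0.161) and miR-183-5p without siC C2, siC C3 or siIGF2BP2 replicate 2 or 3 (highest adjusted p = 0.153). miR-592 fell from 34.6 and 38.6 in siC to 9.90, 5.73 and 15.5 in siIGF2BP2, and miR-3609 from 39.6 and 112 to 8.49, 9.55 and 6.91. These calls were lost for miR-592 without siC C2 or siC C3 (highest adjusted p = 0.12) and miR-3609 without siC C3 (highest adjusted p = 0.0786).

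The remaining miRNAs of this group are markers of other cell types that are still read at a low level. miR-143-3p is known from smooth muscle cells and fibroblasts. In the siC libraries miR-143-3p was read at 1089 and 1355, and in the siIGF2BP2 libraries at 9.90, 11.5 and 10.4. The log2 fold change was -6.72 ± 0.39 (SE, adjusted p = 2.36e-07). miR-126-5p comes from an intron of the endothelial gene EGFL7. For miR-126-5p, siC had 112 and 85.2 and siIGF2BP2 had 14.1, 11.5 and 13.8. miR-126-5p fell by 2.81 ± 0.33 on the log2 scale (SE, adjusted p = 8.49e-05). Within the block it was higher in siIGF2BP2 than in siIGF2BP3 (5.99, 3.55 and 4.76), by 1.31 ± 0.30 (SE, adjusted p = 0.0313). Both arms of the miR-126 hairpin passed, miR-126-3p with 36.3 and 13.3 in siC and 2.83, 1.91 and 3.45 in siIGF2BP2; the call was lost for miR-126-3p without siC C2 or siIGF2BP2 replicate 2 (highest adjusted p = 0.199). miR-127-3p was at 1966 and 717 in siC and at 4.24, 1.91 and 12.1 in siIGF2BP2. miR-127-3p belongs to the imprinted 14q32 cluster, which is expressed from the maternal chromosome, mainly in the brain, the placenta and the embryo. On the log2 scale miR-127-3p fell by 7.67 ± 0.60 (SE, adjusted p = 2.09e-06).

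The 56 miRNAs with a mean under 5 in siIGF2BP2 held most of the falls. Of all 69, 40 had 0 reads in the 3 siIGF2BP2 libraries together, and 14 had 1 to 3 reads. In the 726, 63 met the rule through siC libraries alone, which held 40 of the falls and could only be lower in siIGF2BP2, and 28 through siIGF2BP2 libraries alone, with 0 calls. As 0 reads in a group allow up to 3, which are worth a mean value of 1.66, a fold for these is a lower bound and covers counting error only. The normalised read counts of miR-381-3p were 450.3 and 157 in siC and 0 in siIGF2BP2. It was at least 183-fold lower, and 94.7-fold without siC C2, 272-fold without siC C3 and 112-fold without siIGF2BP2 replicate 1. In siC, miR-410-3p had values of 239 and 164, and in siIGF2BP2 of 0. It was at least 122-fold lower (74.1-fold without siIGF2BP2 replicate 1), and siIGF2BP3 had 2.0, 1.18 and 2.38. In the siC libraries miR-432-5p was read at 122 and 94.5, and in the siIGF2BP2 libraries at 0. It was at least 65.3-fold lower (39.8-fold without siIGF2BP2 replicate 1), and the siIGF2BP3 libraries held 0 reads as well. Other 14q32 miRNAs retained a few reads: miR-411-5p went from 261 and 194 to 0, 3.82 and 0, miR-654-3p from 196.3 and 87.8 to 1.41, 0 and 1.73 and miR-409-3p from 155 and 89.2 to 0, 1.91 and 0. For these 6 miRNAs the fitted changes of siIGF2BP2 over siC ran from -8.06 to -6.14 on the log2(value + 1) scale, with adjusted p-values between 7.46e-08 and 1.67e-05. The other arms of 3 hairpins of the cluster fell as well. miR-127-5p went from 11.5 and 10.6 in siC to 0 in siIGF2BP2, miR-411-3p from 8.25 and 5.32 to 0 and miR-654-5p from 11.5 and 6.65 to 0. These 3 are among the miRNAs that could only be lower. With DESeq2, miR-411-3p (adjusted p = 0.323) and miR-654-5p (adjusted p = 0.145) did not pass.

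**Figure D4:**
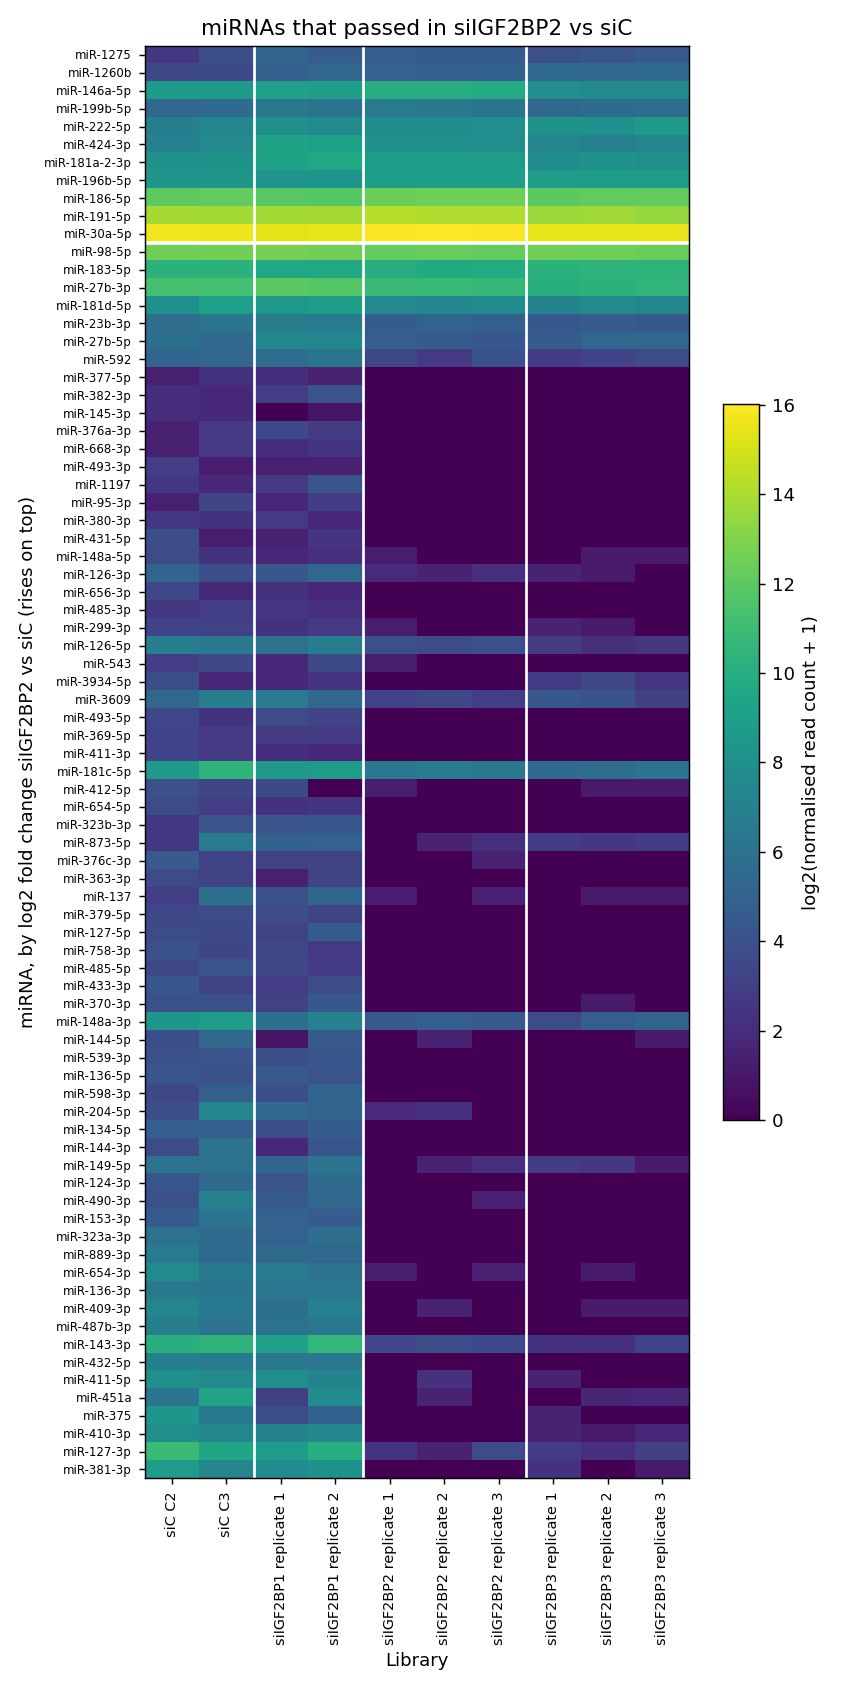
log2(normalised read count + 1) (colour) of the 80 miRNAs that passed (rows, rises on top, ordered by fold change) in each of the 10 libraries (columns, grouped by siRNA). The lower rows are dark in the siIGF2BP2 and siIGF2BP3 columns and lighter in the siC and siIGF2BP1 columns, which is the split of the source names.

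The 14q32 cluster supplied 39 of the falls among its 50 miRNAs described here (of 75 in the list), with 0 rises and a median log2 fold change of -2.93, beside 7.76% lower of all miRNAs tested and a median of -0.03. Of the 50, 40 had 0 reads in siIGF2BP2 and so met the rule through the siC libraries alone. These could only be lower, and the count and the median of the list are set in part by that. Its summed share of the reads was 0.206% to 0.448% in siC, 0.176% to 0.267% in siIGF2BP1, 0.0011% to 0.0018% in siIGF2BP2, and in siIGF2BP3 it was 0.0011% to 0.0019%. The share was high in the libraries of one source name and low in those of the other. Within the block, where 3.15% of the tested miRNAs passed, 1 of the 50 did, miR-410-3p (0 in each siIGF2BP2 library). In bulk RNA, fewer cells of a type and less RNA per cell cannot be told apart. The lists of markers of other tissues differed from each other. Of 8 blood and endothelial miRNAs, 5 fell, 0 rose and 2 had positive log2 fold changes that did not pass, and the list took 0.0810% to 0.132% of the reads in siC and 0.0458% to 0.0656% in siIGF2BP2. Its erythroid marker miR-451a was at 67.6 and 660.1 in siC and 0, 1.91 and 0 in siIGF2BP2 (log2 fold change -7.22 ± 1.22 SE, adjusted p = 0.00165), a call lost without siC C3 (adjusted p = 0.0858), while miR-142-5p, a miRNA of haematopoietic cells, was at 451.9 and 397 and 410.3, 556 and 502.5. Of 9 endocrine and neural miRNAs, 4 fell: the islet miRNA miR-375 from 335 and 89.2 to 0 (at least 128-fold lower, and 53.8-fold without siC C2, 202-fold without siC C3 and 77.9-fold without siIGF2BP2 replicate 1), and miR-124-3p, miR-137 and miR-153-3p of neurons, 2 of which had 0 reads in siIGF2BP2. The call was lost for miR-137 without siC C3 or siIGF2BP2 replicate 2 (highest adjusted p = 0.241), and its log2 fold change without 1 library ran from -5.02 to -2.02. The list took 0.191% to 0.243% of the reads in siC and 0.159% to 0.213% in siIGF2BP2, mainly through miR-7-5p (log2 fold change 0.36 ± 0.25 SE, adjusted p = 0.569). miR-143-3p and miR-145-3p, the miRNAs described of the miR-143 and miR-145 cluster, both fell. The list of this cluster took 0.120% to 0.140% of the reads in siC and 0.0010% to 0.0012% in siIGF2BP2, beside 0.00037% to 0.00091% in siIGF2BP3. Mean values in siC were 1222 for miR-143-3p and 2.98 for miR-145-3p. With 0 reads in siIGF2BP2, miR-145-3p could only be lower, by at least 1.8-fold (1.1-fold without siIGF2BP2 replicate 1). The call was lost for miR-145-3p without siIGF2BP2 replicate 1, 2 or 3 (highest adjusted p = 0.0539). The muscle and liver list had 0 miRNAs that met the rule, and the miR-200 and keratinocyte list 3, at values of at most 5.73 in any of the 5 libraries. All 3 had positive log2 fold changes (median 0.61), and 0 passed. The part of other cell types in these falls was not tested.

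In total 50 of the 69 falls lay in 5 of these lists (14q32, blood and endothelial, muscle and liver, endocrine and neural, and the miR-143 and miR-145 cluster), which hold 69 of the 726 miRNAs, and 19 outside. The miR-200 and keratinocyte list, with 0 calls, is not among the 5. In siIGF2BP2, 40 miRNAs of 14q32, 4 endocrine and neural, 2 blood and endothelial and 1 of the miR-143 and miR-145 cluster had 0 reads. These met the rule through siC alone and could only be lower, and the lists were chosen with earlier results known. The count of falls in the lists is set in part by that. With the 5 lists left out of the test, 13 miRNAs fell and 6 rose. With edgeR on the recovered reads, 52 of 335 tested miRNAs passed (15.5%), 48 of them calls of limma in the same direction. Summed over the 69 miRNAs, the share of all miRNA reads was 1.86% and 1.79% for siC, and 0.815%, 0.860% and 0.803% for siIGF2BP2. It was 0.938%, 0.907% and 0.941% for siIGF2BP3, and 1.52% and 1.71% for siIGF2BP1. The 56 with a mean under 5 took 0.300% and 0.286% in siC, 0.151% to 0.213% in siIGF2BP1, and 0.00143% to 0.00202% in siIGF2BP2, beside 0.00260% to 0.00346% in siIGF2BP3. That the shares of the 69 and of the 56 were lower in siIGF2BP2 than in siC follows from the choice of the miRNAs. Of the 19 outside the lists, several were at or near 0 as well: miR-204-5p, known from the retinal pigment epithelium, had 13.2 and 164 in siC and 2.83, 3.82 and 0 in siIGF2BP2, miR-490-3p had 14.8 and 128 and 0, 0 and 1.73, and miR-149-5p had 67.6 and 63.9 and 0, 1.91 and 3.45. miR-204-5p and miR-490-3p were higher in siC C3 than in siC C2 by a wide margin, and both siC values lay above every siIGF2BP2 value. The call was lost for miR-204-5p without siC C3 (highest adjusted p = 0.161).

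By sequence, 38 of the 61 falls with a RefSeq entry are encoded on chromosome 14 alone, against 0 of 9 rises. Of the other miRNAs among the 644 with an entry, which did not pass, 23 are. The 38 are falls of the 14q32 cluster described above, many with 0 reads in siIGF2BP2, which could only be lower. They are not a separate result, and the GC content of the falls includes them. The median GC content was 45.5% for the falls, 52.2% for the rises and 50.0% for the 234 miRNAs with a mean of at least 10 that did not pass. The miRNAs that passed and have an entry carried 68 different seeds, and 2 seeds had more than 1 falling member: ACAUUCA of the miR-181 family and UCAUACA of miR-485-3p and miR-539-3p, both of 14q32. For miR-485-3p, siC had 4.95 and 6.65 and siIGF2BP2 had 0. miR-539-3p was at 14.8 and 17.3 in siC and at 0 in siIGF2BP2. Both had 0 reads in siIGF2BP2, and no seed had more than 1 rising member.

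The 15 most abundant miRNAs made up 78.9% and 79.4% of siC reads and 79.9%, 79.2% and 78.9% of siIGF2BP2 reads. Of these 15, 2 passed, miR-30a-5p and miR-191-5p, beside 9.0% of all miRNAs tested. let-7a-5p, the most abundant, had 155683 and 181271 in siC and 172566, 167016 and 154817 in siIGF2BP2, with a log2 fold change of -0.03 and a 95% interval from -0.28 to 0.22. The interval of miR-21-5p, an oncogenic miRNA that represses PDCD4, ran from -0.03 to 0.35 around 0.16, and that of miR-92a-3p, of the miR-17-92 cluster, from -0.21 to 0.25 around 0.02. miR-100-5p was more variable, at 57226 and 67081 in siC and 63252, 42805 and 43889 in siIGF2BP2. Of the 56 miRNAs with a mean of at least 1000, 3 rose and 3 fell (miR-27b-3p, miR-98-5p and miR-183-5p), and 54 lay between -0.5 and 0.5.

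**Figure D5:**
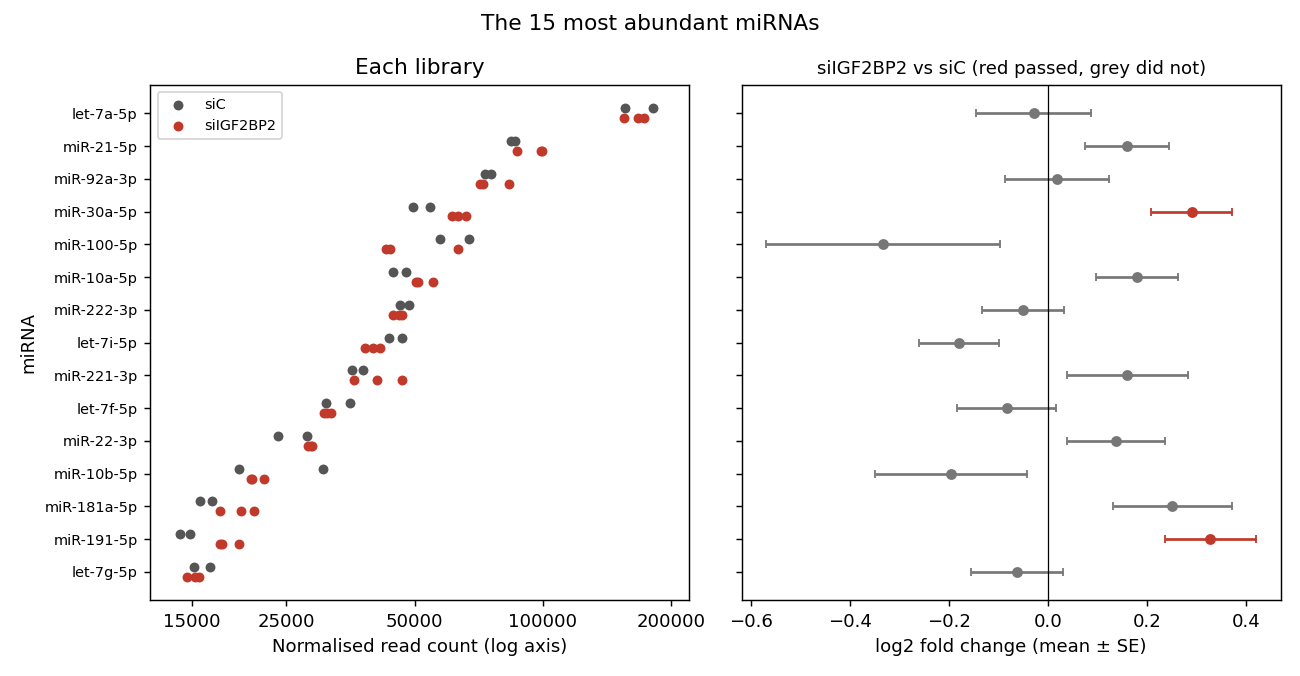
Left, normalised read count (x axis, log scale) of the 15 most abundant miRNAs (y axis) in each siC (grey) and siIGF2BP2 (red) library; right, the log2 fold change of siIGF2BP2 over siC with 1 SE, red for those that passed. The 2 red points on the right are miR-30a-5p and miR-191-5p, and the other 13 lie between -0.33 and 0.25.

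Lists of 2 to 8 miRNAs held 0 calls, beside 9.0% called of all miRNAs tested, and nothing is read from that for lists of this size. They were the 6 miRNAs of the miR-17-92 cluster (median 0.03), the 3 of its paralog miR-106b-25 (-0.10), the 7 of the miR-15/16 family (0.04), the 3 of the miR-29 family, which represses matrix mRNAs (0.06), and the 2 of the miR-26 family (-0.03). The others were the 6 miRNAs of the miR-99/100 and miR-125 families (0.03), the 5 oncogenic and hypoxia miRNAs (0.03), the 8 of the list of miR-224, miR-452, miR-378, miR-28, miR-151 and miR-708 (0.24), the 7 of the X-linked miR-532 cluster (-0.14) and the 7 miRNAs made without Drosha (-0.15). miR-210-3p, which is induced by HIF in hypoxia, was at 24.7 and 23.95 in siC and 28.3, 28.6 and 19.0 in siIGF2BP2. The 7 Drosha-independent miRNAs include miR-320a (log2 fold change 0.14 ± 0.10 SE, adjusted p = 0.585) and miR-484 (log2 fold change -0.31 ± 0.14 SE, adjusted p = 0.256). Of 4 miRNAs of miR-221 and miR-222, 1 rose, and of 3 of the cluster of miR-183, miR-96 and miR-182, 1 fell. Of 5 of the miR-23, miR-27 and miR-24 clusters, 2 fell, and of 6 in the list of miR-103, miR-107, miR-191, miR-425, miR-22, miR-132 and miR-212, 1 rose.

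Within the block, siIGF2BP2 and siIGF2BP3 differed in 28 miRNAs, 15 higher and 13 lower in siIGF2BP2, which is 3.15% of those tested (1.69% higher and 1.46% lower). This comparison uses the same 3 siIGF2BP2 libraries as the one against siC, so calls shared by both are not independent. Of the 11 rises against siC, 5 passed here as higher in siIGF2BP2. Of the 69 falls, 3 passed as lower and 2 as higher. The 56 falls with a mean under 5 had few reads in either group, which leaves little room for a difference. The other 18 of the 28 had not passed against siC. The smallest p within the block was that of miR-146a-5p, given above. Products of miR-181a and miR-181b were higher as well, with 20967, 17449 and 19596 in siIGF2BP2 and 9421, 9981 and 8529 in siIGF2BP3 for miR-181a-5p, a difference of 1.05 ± 0.11 (log2, SE, adjusted p = 0.000107). miR-181b-5p was higher by 0.73 ± 0.09 (log2, SE, adjusted p = 0.000636). These miRNAs had siC values of 16732 and 15681 and of 8663 and 8517, close to siIGF2BP2, and 4 of 6 miRNAs of the list passed within the block, all higher. The 4 were miR-181a-5p, miR-181a-3p, miR-181a-2-3p and miR-181b-5p, while miR-181c-5p and miR-181d-5p did not pass. With single libraries left out, the call of miR-181a-3p was kept only without siIGF2BP2 replicate 3 (highest adjusted p = 0.0967). miR-21-5p was at 86806, 98995 and 99613 in siIGF2BP2 and 60131, 55536 and 61734 in siIGF2BP3, a difference of 0.68 ± 0.08 (log2, SE, adjusted p = 0.000219), with 84161 and 85862 in siC. miR-30a-5p and miR-191-5p, which had passed against siC, were higher by 0.50 ± 0.07 (log2, SE, adjusted p = 0.00213) and by 0.55 ± 0.08 (log2, SE, adjusted p = 0.00231).

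In the other direction, miR-31-5p, a miRNA of invasion and epithelial genes, was at 3073, 2810.4 and 3274 in siIGF2BP2 and 6005, 5919 and 5544 in siIGF2BP3, a difference of -0.93 ± 0.09 (log2, SE, adjusted p = 7.14e-05). miR-155-5p had 6074, 6016 and 6663 and 9950.3, 9947 and 8633 (-0.60 ± 0.10 (log2, SE, adjusted p = 0.00556)), and miR-222-3p 46698, 46013 and 44526 and 71233, 71462 and 62579.5 (-0.58 ± 0.07 (log2, SE, adjusted p = 0.000644)). Their siC values were 3686 and 3531 for miR-31-5p, 6771 and 7547 for miR-155-5p and 48465 and 46322 for miR-222-3p, and none of these passed in siIGF2BP2 against siC. miR-182-5p and miR-183-5p of 1 cluster were both lower in siIGF2BP2, with differences of -0.51 ± 0.09 (log2, SE, adjusted p = 0.00583) and -0.48 ± 0.10 (log2, SE, adjusted p = 0.0172). miR-3934-5p had 13.2 and 2.66 in siC, 5.99, 9.47 and 4.76 in siIGF2BP3 and 0 in siIGF2BP2, and so was lowest in siIGF2BP2 against both. Of the 28, 11 passed whichever of the 6 libraries was left out, 7 higher and 4 lower; miR-183-5p, miR-3934-5p, miR-126-5p and miR-27b-3p did not, with highest adjusted p-values of 0.0862, 0.0676, 0.102 and 0.152.

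In the authors' deposited table, 58 rows had a false discovery rate under 0.05 for siIGF2BP2 against siC, 3 higher and 55 lower. These rows in the authors' deposited table belong to 56 miRNAs, of which 55 also passed the limma test here, 3 higher and 52 lower. For miR-146a-5p the authors' deposited table gives a log2 fold change of 1.22 with a false discovery rate of 6.08e-16, for miR-1260b 1.54 with 0.0445 and for miR-181a-2-3p 0.64 with 0.0483. For miR-30a-5p and miR-191-5p, which passed here at adjusted p-values of 0.0433 and 0.0435, the false discovery rates in the authors' deposited table were 0.364 and 0.199.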

How the data were processed

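Small RNA was sequenced from ES-2 cells in 10 libraries of 4 groups. The authors deposited a table whose signal per mature miRNA locus is a normalised read count, and per the submitters' processing notes the build was hg19 and the tools were edgeR 3.12, featureCounts 1.4.6, Bowtie2 2.2.4 and cutadapt 1.6. What is not given in the sources used here includes the scaling method, the mismatches allowed and the miRNA annotation. Log2 fold changes and p-values with their false discovery rates in the authors' deposited table come from the authors' own comparisons. Each deposited value was a whole multiple of the value of 1 read in its library (100% within 0.01 reads), which recovered totals of 462724 to 1269743 reads. The table has 2794 rows, and 218 of them with a copy suffix were summed with the row of the same mature name, and how reads of duplicated loci were counted is not stated.

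miRNAs were tested on log2(value + 1) with limma 3.58.1 (trend) in R 4.3.3, keeping those that reached 1 in 2 or more of the 10 libraries, a shared spread over the 4 groups and Benjamini-Hochberg adjustment at 0.05. A log2 fold change on this scale understates the change of miRNAs with few reads. The contrasts were siIGF2BP2 against siC and, within a block, siIGF2BP2 against siIGF2BP3; the script was tested on simulated data. edgeR 4.0.16 and DESeq2 1.42.0 on the recovered reads, other scalings, filters, pseudocounts and left-out libraries were alternatives. With 0 reads in a group, 3 reads over the group served as the floor. Sequences came from RefSeq. Named were the miRNAs that rose, the 15 largest falls of at least 5 in siIGF2BP2, the 8 falls under 5 with the highest siC mean, the 15 most abundant, the 10 smallest p-values within the block, hairpins with both arms called and up to 4 per list, besides seeds shared by falls; let-7d-5p, let-7e-5p, miR-30b-5p, miR-124-3p, miR-137, miR-149-5p, miR-152-3p, miR-153-3p, miR-181c-3p, miR-204-5p, miR-210-3p, miR-490-3p and miR-3934-5p were added with their values known. The miRNAs and lists were chosen with earlier results of these data known.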

Additional observations from a re-analysis of the deposited data

How the results depend on the processing

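Against siC, where 11 miRNAs were higher and 69 lower, the number higher was 4 with TMM factors, 94 with upper quartile scaling, 7 with the median of ratios, 6 with the 2 groups fitted alone, 7 with edgeR, 6 with DESeq2, 6 with 5 lists of other tissues left out, 2 at a threshold of 0.01 and 3 to 10 with 1 library left out. The number lower was 45 with edgeR, 13 with the lists left out, 42 at a threshold of 0.01 and 49 to 61 with 1 library left out. With upper quartile scaling miR-183-5p (0.074) and miR-98-5p (0.13) reversed; the cause was not tested, and the median of the 315 miRNAs with a mean of at least 10 lay at 0.51, against -0.09 with TMM factors. Of the calls, 2 higher (miR-146a-5p and miR-1260b) and 40 lower were kept whichever library was left out, and 1 higher (miR-146a-5p; miR-1260b was lost with DESeq2, adjusted p = 0.0578) and 36 lower in every one of the 12 settings of pseudocount, scaling, filter, fit, tool and row choice that gave a value. With 1 siC library left out, the lone siC library is assumed to vary like the other groups. The libraries held too few reads to tell 0 from a value of about 1.66 in siIGF2BP2.

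Within the block, where 15 were higher and 13 lower, the number higher was 5 with upper quartile scaling, 26 with edgeR, 25 with DESeq2 and 7 to 11 with 1 library left out, and the number lower was 20 with the 2 groups fitted alone and 4 to 11 with 1 library left out. No paired analysis was possible for siIGF2BP2 against siC because the siC columns could not be tied to replicate numbers. With the replicate block for siIGF2BP2 against siIGF2BP3, 4 were higher and 1 lower (miR-146a-5p, miR-181a-5p, miR-31-5p, miR-181b-5p and miR-21-5p). Libraries with the same number shared only that number: their deviations had correlations of -0.181, -0.35 and -0.147 over 234 miRNAs, which are not independent replicates, and 0 libraries correlated best with their own number. None of these alternatives ended the miR-146a-5p call against siC.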
